A study of Mus musculus with 2 samples.

Results

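The cells described here are Krt13-positive surface epithelial cells in a single-cell RNA sequencing study of the mouse retinal pigment epithelium (RPE) and choroid, and are called Krt13 cells. They were chosen on their own counts. Surface epithelium was first taken as barcodes with a summed level of Krt5, Krt14, Krt12, Krt15 and Krt4 of at least 60 counts per 10000 (CP10K) and a summed level of the RPE genes Rpe65, Rlbp1, Rgr, Lrat and Rdh5 of under 100 CP10K. Krt13 cells were those among them with a Krt12 count at or below that of Krt15 plus Krt4 and with at least 5 CP10K of Krt13 plus Serpinb3a. The rule found 246 cells among 8331 barcodes kept of 8676 in all, 232 in the NaIO3 library and 14 in the PBS library. The other surface epithelial cells served for comparison. They were 480 cells with a Krt12 count above Krt15 plus Krt4 (Krt12 cells, 429 in NaIO3 and 51 in PBS) and 48 cells under the limit for Krt13 plus Serpinb3a (Krt13-low cells, 40 in NaIO3 and 8 in PBS). Barcodes with at least 100 CP10K of the RPE genes, 2270 in NaIO3 and 3627 in PBS, are called RPE barcodes.

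The NaIO3 group were C57BL/6J mice given sodium iodate, an oxidant that injures the RPE, intravenously at 20 mg/kg, and the PBS group were mice of that strain given an equal volume of phosphate-buffered saline, each for 7 days. The labels give no age or sex. Eyes of 6 mice per group were pooled into 1 library, digested in 2% dispase for 30 minutes, freed of the anterior parts and neural retina, and the brown hexagonal cells were picked under a microscope. With 1 pooled library per group nothing has a replicate check, so no test is given, and every interval (95%) covers counting error only.

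The conjunctiva is the mucous membrane over the white of the eye and the inner lids. Its stratified, non-cornifying epithelium is known for the keratin pair Krt4 and Krt13, for Krt19 and, among its surface cells, for mucin-secreting goblet cells, whereas the corneal epithelium beside it is known for Krt12. The basal layer and the limbus, the border zone that holds corneal stem cells, carry Krt14, Krt15 and Trp63, and cells that move up from the basal layer lose division genes and gain surface mucins, junction proteins and barrier proteins.

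Krt13 and Serpinb3a are the genes of which the cells had to hold a minimum, and Krt12 is the gene that the rule set against Krt15 plus Krt4, so the 250 bases before the start of each are shown. All lie on the minus strand in RefSeq on GRCm38.p6, and are printed from 5′ to 3′ at chr11:100121567-100121816 for Krt13, chr1:107052304-107052553 for Serpinb3a and chr11:99422260-99422509 for Krt12. Capitals mark 3 motifs searched on both strands. They are TATAAA, the core of a TATA box, and CACCC, found in sites of KLF factors. The third is TGANTCA, with any base at N, a looser form of the AP-1 core TGA(C/G)TCA.
Krt13: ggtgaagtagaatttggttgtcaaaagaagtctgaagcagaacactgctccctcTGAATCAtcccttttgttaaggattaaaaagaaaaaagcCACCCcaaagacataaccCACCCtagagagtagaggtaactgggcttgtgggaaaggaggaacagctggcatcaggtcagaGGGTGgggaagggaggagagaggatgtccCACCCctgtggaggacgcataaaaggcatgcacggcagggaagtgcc
Serpinb3a: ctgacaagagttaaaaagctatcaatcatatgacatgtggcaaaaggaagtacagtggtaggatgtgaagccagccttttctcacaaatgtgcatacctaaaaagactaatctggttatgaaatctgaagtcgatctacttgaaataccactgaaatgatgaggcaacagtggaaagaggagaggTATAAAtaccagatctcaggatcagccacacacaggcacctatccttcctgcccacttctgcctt
Krt12: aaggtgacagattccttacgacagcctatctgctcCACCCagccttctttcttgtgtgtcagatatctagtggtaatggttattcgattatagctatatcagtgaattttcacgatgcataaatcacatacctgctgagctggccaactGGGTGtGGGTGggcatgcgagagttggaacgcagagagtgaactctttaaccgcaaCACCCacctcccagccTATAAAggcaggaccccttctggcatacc
The Krt13 window held 4 CACCC matches and 1 TGANTCA match, which has A at N and so is not the AP-1 core. The Serpinb3a window held 1 TATAAA and the Krt12 window 4 CACCC and 1 TATAAA. Of 32851 RefSeq mouse promoter windows of the same length, 52.0% held CACCC, 12.4% TATAAA and 6.75% TGANTCA. A match describes the letters and is not a shown site.

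The 2 libraries held 51168520 UMIs (unique molecular identifiers, here counts) over 4058 barcodes in NaIO3 and 51055592 over 4618 in PBS. Krt13 cells contributed 2412372 UMIs in NaIO3 and 205045 in PBS, so that 3 counts correspond to 1.24 and 14.6 CPM (the count scaled by the summed counts of the population). Their UMIs per cell lay between 4263 and 38596 (median 8134.5) in NaIO3 and between 6874 and 21939 (median 14501) in PBS. The median mitochondrial share was 4.70% in NaIO3 and 2.46% in PBS Krt13 cells, against 2.21% and 2.02% in Krt12 cells. The libraries shared 24 barcode sequences, of which 0 were Krt13 cells. RNA of lysed cells that is caught in every droplet (free RNA) was high: Krt12 had a UMI in 99.6% of RPE barcodes in NaIO3 and in 32.9% in PBS, at 642 and 51.9 CPM. Markers of other cells were summed over fixed lists. The 10 RPE markers reached 6728 CPM in NaIO3 and 9315 CPM in PBS Krt13 cells, against 80336 and 116012 CPM in RPE barcodes, with Best1 at 0 in NaIO3. The 10 macrophage markers reached 1547 and 966 CPM in Krt13 cells, against 1833 and 237 CPM in RPE barcodes. The 8 rod markers reached 410 and 1058 CPM in Krt13 cells, against 382 and 1062 CPM in RPE barcodes. Fibroblast, endothelial, lymphocyte, dendritic and lens lists reached between 1.66 and 151 CPM. The 10 lacrimal and meibomian gland markers reached 805 CPM in NaIO3 and 4384 CPM in PBS Krt13 cells, against 379 and 43.9 CPM in RPE barcodes. Of this sum the water channel Aqp5, which corneal epithelium also expresses, made up 742 and 4355 CPM, and 6 and 8 of the 10 markers were at 0. Subtracting an estimate of free RNA removed 8.34% of the Krt13 cell counts in NaIO3 and 7.99% in PBS, and its effect on the counts of genes past 2-fold is given with each comparison.

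Krt13 cells were 5.88% of the kept barcodes in NaIO3 (232 of 3944, 5.17 to 6.66) and 0.319% in PBS (14 of 4387, 0.175 to 0.535). Surface epithelium as a whole was 17.8% (16.6 to 19.0) in NaIO3 and 1.66% (1.31 to 2.09) in PBS. Krt13 cells made up 33.1% (29.6 to 36.7) of that epithelium in NaIO3 and 19.2% (10.9 to 30.1) in PBS. The labels describe no sampling of conjunctiva or cornea, and with hand-picked cells from 1 pool per group the treatment, the dissection and the picking cannot be told apart in these shares. In a clustering of all cells, 230 of the 246 Krt13 cells fell into 1 cluster, together with 46 of 48 Krt13-low cells, and 15 fell into the cluster that held 474 of 480 Krt12 cells.

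The values that chose the cells spread widely. Krt13 plus Serpinb3a had a lowest, median and highest level of 5.01, 59.8 and 307 CP10K in NaIO3, and of 14.1, 28.2 and 127 CP10K in PBS. The summed surface keratins ran from 69.6 over a median of 354 to 906 CP10K in NaIO3 cells and from 93.9 over 298 to 460 CP10K in PBS cells. The summed RPE genes stayed at a median of 18.4 and 17.6 CP10K, far under the limit. Just inside the limit for Krt13 plus Serpinb3a lay 31 NaIO3 cells with 5.01 to 9.87 CP10K, and their summed counts had 659 CPM of Krt4, 210 CPM of Krt19 and 223 CPM of Alox12e. Just outside lay 17 NaIO3 cells with 2.52 to 4.54 CP10K, with 426 CPM of Krt4, 55.2 CPM of Krt19 and 94.7 CPM of Alox12e. Krt12, the corneal keratin, was also higher just inside, with 3074 CPM, against 639 CPM just outside. In PBS 0 cells lay just inside and 1 just outside.

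The label conjunctival-type was checked on 5 markers, of which the rule used Krt13, Krt4 and Serpinb3a and did not use Krt19 or Alox12e. Since the rule sorted the same cells, the contrasts between these populations are descriptions. Krt4 (ENSMUSG00000059668, 15:101918535-101924735, minus strand, GRCm38), the partner of Krt13 in mucosal epithelia, had 5919 CPM in NaIO3 Krt13 cells, against 91.1 CPM in Krt12 cells, 474 CPM in Krt13-low cells and 48.5 CPM in RPE barcodes. In PBS the Krt4 level was 2565 CPM, against 32.6, 77.1 and 2.82 CPM in the same populations. The Krt4 ratio over Krt12 cells was 64.9 (59.4 to 71.1) in NaIO3 and 77.0 (51.4 to 127) in PBS, which restates the choice, since the rule split these populations by Krt4.

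Krt13 itself (ENSMUSG00000044041, 11:100117327-100121566) did not set them apart as sharply. It had 6354 CPM in NaIO3 Krt13 cells, against 3104 CPM in Krt12 cells and 215 CPM in Krt13-low cells, a ratio over Krt12 cells of 2.05 (2.00 to 2.09). In PBS, Krt13 had 3877 CPM in Krt13 cells and 3773 CPM in Krt12 cells, a ratio of 1.03 (0.948 to 1.11). Krt13 alone therefore does not set these cells apart from Krt12 cells in the PBS library, and of the 5 markers only Krt19 and Alox12e are outside the rule. Krt19 (ENSMUSG00000020911, 11:100140810-100148665), a keratin of simple and mucosal epithelia, had 2430 CPM, against 315 CPM in Krt12 cells and 154.4 CPM in Krt13-low cells in NaIO3. The ratio of Krt19 over Krt12 cells was 7.72 (7.32 to 8.15) in NaIO3 and 4.99 (4.04 to 6.19) in PBS.

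Serpinb3a (ENSMUSG00000044594, 1:107045587-107052303), a clade B serpin with close paralogs that the counting may have split, had 719 CPM in NaIO3 Krt13 cells, against 4.52 CPM in Krt12 cells, 7.18 CPM in Krt13-low cells and 4.19 CPM in RPE barcodes. Its PBS level was 283 CPM, against 1.48 CPM (1 UMI) in Krt12 cells and 0 in Krt13-low cells. Alox12e (ENSMUSG00000018907, 11:70315610-70322628), an epidermal-type 12-lipoxygenase, had 698 CPM in NaIO3 and 697 CPM in PBS Krt13 cells. Against these, Alox12e had 8.5 and 2.97 CPM in Krt12 cells and 108 and 231 CPM in Krt13-low cells. So Serpinb3a was near its level in RPE barcodes in both other epithelial populations. In Krt13-low cells this restates the choice, since the rule kept their Krt13 plus Serpinb3a under its limit. Alox12e, which the rule did not use, was also present in Krt13-low cells. Which of these genes is the more specific to Krt13 cells therefore cannot be read from Krt13-low cells.

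The keratins of the basal layer were shared with Krt13-low cells. Krt15 had 20491 CPM in NaIO3 and 18342 CPM in PBS Krt13 cells, against 8912 and 6256 CPM in Krt13-low cells and 2286 and 3392 CPM in Krt12 cells. Krt14 had 4831 CPM in NaIO3 and 1063 CPM in PBS Krt13 cells, against 5440 and 5125 CPM in Krt13-low cells. Krt7, known from conjunctival and glandular epithelium, had 759 CPM in NaIO3 and 888 CPM in PBS Krt13 cells, against 15.01 and 147 CPM in Krt12 cells. Pax6, the eye-field factor kept by ocular surface epithelia, had 549 CPM in NaIO3 and 234 CPM in PBS Krt13 cells, against 18.8 and 9.15 CPM in RPE barcodes. Krt12 had 982 CPM in NaIO3 Krt13 cells, against 31854 CPM in Krt12 cells and 642 CPM in RPE barcodes, and 232 of 232 cells held a Krt12 UMI. In PBS, where free Krt12 RNA was lower, 6 of 14 Krt13 cells held one.

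Goblet cells were not seen among the Krt13 cells. Muc5ac, the gel-forming mucin that defines them, had 0 UMIs in 232 NaIO3 and in 14 PBS cells. Taking 3 cells of the total as the limit, this allows a share of cells with a UMI of up to 1.29% in NaIO3 and 21.4% in PBS. The rule asked for keratins of stratified epithelium, so any goblet cell low in these was left out beforehand. The limits hold for cells that passed the rule and not for the preparation. Agr2, a disulfide isomerase that goblet cells use for mucin folding but other mucosal cells also express, had 96.2 CPM in NaIO3 and 58.5 CPM in PBS Krt13 cells, against 1.45 and 0 CPM in Krt12 cells. Muc1, a membrane mucin, had 49.7 CPM in NaIO3 and 127 CPM in PBS Krt13 cells, against 4.88 and 51.9 CPM in Krt12 cells and 0 in Krt13-low cells of both libraries. Muc4, the large membrane mucin of the ocular surface, ran the other way against Krt12 cells, with 198 CPM in NaIO3 and 892 CPM in PBS Krt13 cells and 737 and 1533 CPM in Krt12 cells.

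**Figure D1:**
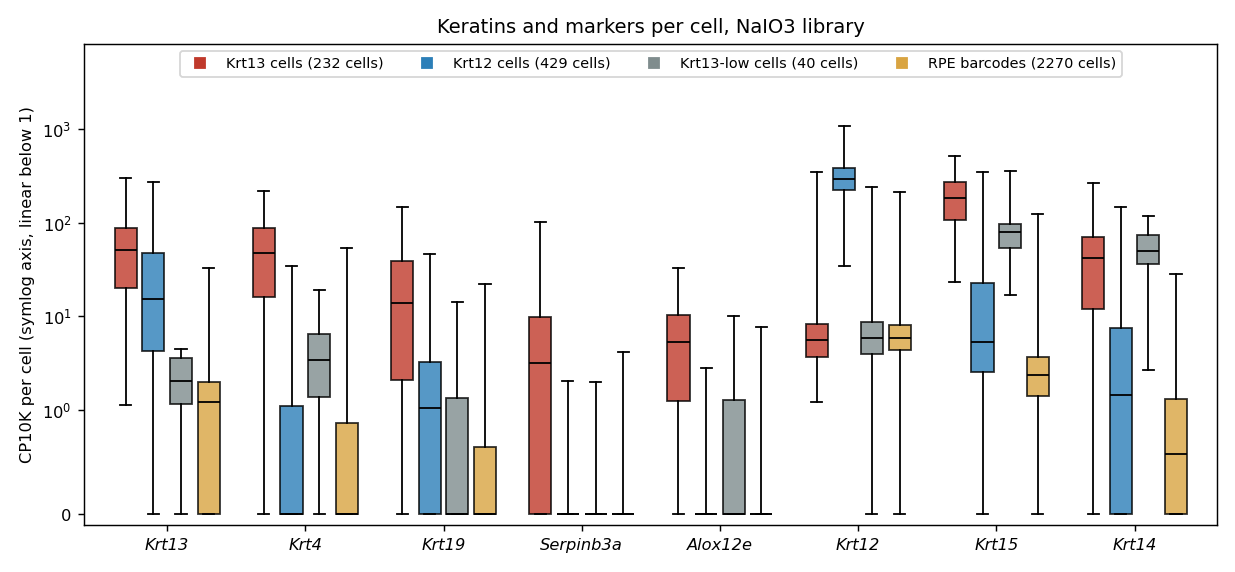
Levels per cell of 8 genes in the NaIO3 library, in CP10K on a symlog axis that is linear below 1; boxes span the quartiles with the median, and whiskers reach the lowest and highest cell. Krt4, Serpinb3a and Alox12e were high in Krt13 cells and low in Krt12 cells, while the Krt13 boxes of both lay closer together.

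Cell by cell, the markers were unevenly spread. Krt13 had a lowest, median and highest level of 1.14, 50.8 and 296 CP10K in NaIO3 cells and 1.45, 26.2 and 127 CP10K in PBS cells. Krt4 had 0, 47.1 and 217 CP10K in NaIO3 cells and 0, 17.3 and 60.4 CP10K in PBS cells. Serpinb3a had 0, 3.21 and 101 CP10K in NaIO3 cells and 0, 2.51 and 13.1 CP10K in PBS cells. The ranges of the libraries overlapped for each of these 3 genes, and some cells of each library lacked Krt4 and Serpinb3a UMIs. After thinning each cell to 3000 UMIs, 94.0% of NaIO3 Krt13 cells held a Krt4 UMI, against 17.7% of Krt12 cells and 13.8% of RPE barcodes, which should lack it (96.6%, 48.3% and 40.0% before thinning). Serpinb3a was seen in 56.9% of thinned NaIO3 Krt13 cells, against 0.699% of Krt12 cells and 1.28% of RPE barcodes (72.8%, 5.36% and 4.76% before thinning). Median depths were 8134.5, 10459 and 9724.5 UMIs in these 3 populations. The Krt12-cell shares thus lay near the background of RPE barcodes. In the 14 PBS cells, 71.4% held a Krt4 UMI and 7 of the 14 a Serpinb3a UMI after thinning.

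Across the 232 NaIO3 cells, genes ordered along the amount of Krt13 plus Serpinb3a. Cells were binned at 5 to 20 CP10K (52 cells), 20 to 60 (64 cells), 60 to 100 (56 cells) and at least 100 CP10K (60 cells), with median depths of 6418, 10195.5, 9891 and 7345.5 UMIs. Krt4 had 954, 3814, 6608 and 11514 CPM in these bins in order. Gsto1, a glutathione transferase, had 6185, 17463, 27547 and 44243 CPM. Alox15, a lipoxygenase of mucosal epithelia and macrophages, had 28.0, 228, 314 and 523 CPM. Krt19, Alox12e, Rbp2 and Muc1 were likewise lowest in the lowest bin and highest in the highest. Krt19 ended at 5248 CPM, against 224 CPM in the lowest bin, and Rbp2, a retinol-binding protein, at 2372 CPM, against 224 CPM.

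Of the basal genes, some ran the other way and some did not. Gpha2, a glycoprotein hormone subunit known as a marker of quiescent limbal stem cells in the mouse, had 865, 405, 204 and 74.5 CPM in the same bins. Igfbp2, an IGF-binding protein, had 982, 422, 200 and 124 CPM. Trp63, the basal epithelial factor, had 140, 84.8, 73.6 and 42.6 CPM. Top2a, a topoisomerase of dividing cells, had 305, 194, 116 and 17.7 CPM. Krt15 and Krt5, also keratins of the basal layer, were higher in each further bin, with 10980, 17154, 21737 and 30327 CPM of Krt15 and 5085, 5578, 6535 and 7582 CPM of Krt5. Pax6 showed neither order, at 428, 584, 590 and 536 CPM. Krt12 was highest in the lowest bin, with 2064 CPM, against 683, 853 and 798 CPM in the further bins. Spearman's correlation with Krt13 over the 232 cells was 0.82 for Krt4, 0.72 for Krt19, 0.64 for Krt15, 0.44 for Alox12e, -0.30 for Krt14, -0.53 for Gpha2 and 0.04 for Krt12. These are descriptions without p-values, since the cells share a library, differ in depth and were chosen on Krt13.

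**Figure D2:**
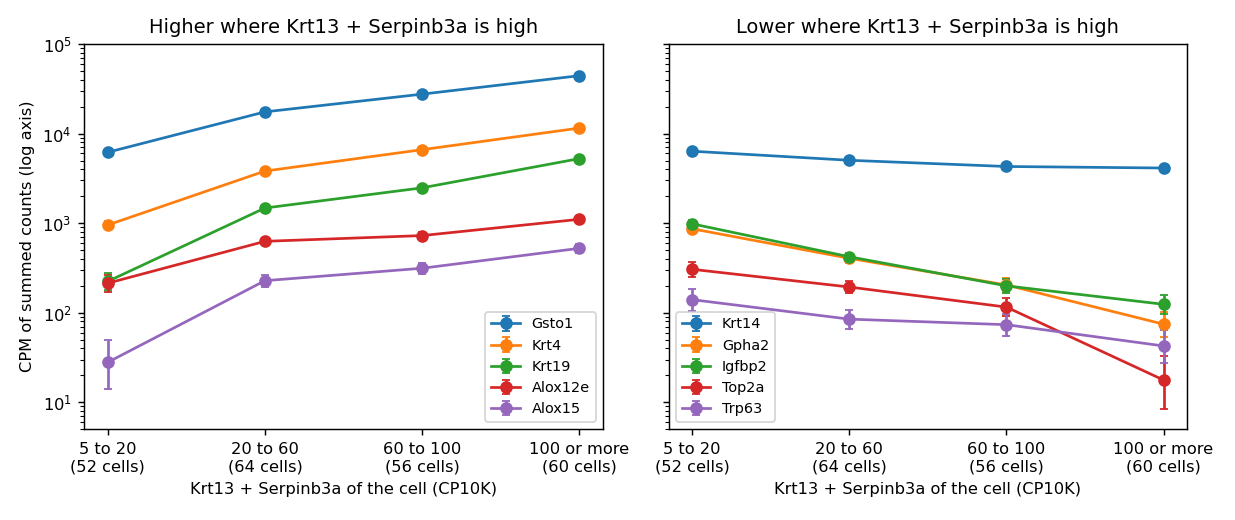
Levels of genes in 4 bins of NaIO3 Krt13 cells by their Krt13 plus Serpinb3a level in CP10K, as CPM of summed counts on a log axis; bars are 95% Poisson intervals. Krt4 and Gsto1 were higher in each further bin, while Gpha2, Trp63 and Top2a were lower in each.

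Clustering the Krt13 cells alone gave 5 sub-clusters, which are described by their leading genes and kept as numbers. The leading genes formed the sub-clusters and are not findings. Sub-cluster 0 (69 NaIO3 and 3 PBS cells) was led by Cyp2a5, Krt19 and Cd24a and had the highest median of Krt13 plus Serpinb3a, 111 CP10K. Sub-cluster 1 (41 NaIO3 and 4 PBS cells) was led by Dapk2, Wnt5b and Tgfbi and had the lowest, 19.1 CP10K. Sub-cluster 2 (64 NaIO3 and 0 PBS cells) was led by the division genes Hist1h2ap, Ube2c and Top2a. Sub-cluster 3 (48 NaIO3 cells and 1 PBS cell) was led by C2cd4b, Hspa1b and Thbs1, with rod transcripts among its leading genes and the highest mitochondrial share, 6.77%, against 2.35% to 4.82% in the others.

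Sub-cluster 4 (10 NaIO3 and 6 PBS cells) went against the label. It was led by Psca, Lypd2 and Slurp1, small Ly6-type surface or secreted proteins, and had 10903 CPM of Krt12, 1329.5 CPM of Krt4, 570 CPM of Krt19 and 11.9 CPM of Serpinb3a. In the other sub-clusters Krt12 lay between 442 and 631 CPM and Serpinb3a between 310 and 1304 CPM. These 16 cells thus carried more Krt12 and less Serpinb3a than the other Krt13 cells, an order also seen in Krt12 cells, and they held 6 of the 14 PBS cells. Of the cells with the highest doublet scores, 2 in NaIO3 and 0 in PBS were Krt13 cells.

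**Figure D3:**
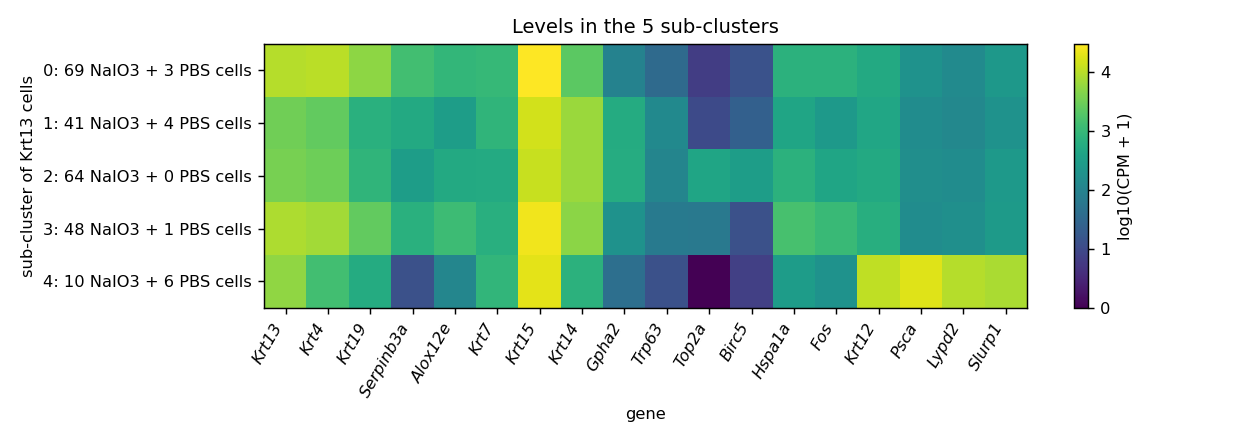
Levels of 18 genes in the 5 sub-clusters of Krt13 cells as log10(CPM + 1) of summed counts, with both libraries together. Sub-cluster 4 had Krt12, Psca, Lypd2 and Slurp1 high and Serpinb3a low, and Top2a and Birc5 were high in sub-cluster 2.

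Dividing cells were counted with 4 genes, Mki67, Top2a, Cdk1 and Birc5, as cells with at least 2 of them after thinning to 3000 UMIs. They were 20.3% of NaIO3 Krt13 cells (15.3 to 26.0; 31.0% before thinning). They were 0 of 429 thinned NaIO3 Krt12 cells, a limit of 0.699% at that depth, 35.0% of Krt13-low cells (20.6 to 51.7) and 0.441% of RPE barcodes. Before thinning the shares were 2.33% of Krt12 cells (1.12 to 4.24), 42.5% of Krt13-low cells and 2.51% of RPE barcodes, so that Krt12 cells lay at the background of RPE barcodes. In PBS they were 0 of 14 Krt13 cells, which allows up to 21.4%, and 3 of 8 Krt13-low cells. After thinning, the NaIO3 interval and the PBS limit thus overlapped. Before thinning, NaIO3 had 31.0% (25.1 to 37.4) and PBS 0 of 14 (0 to 23.2), which did not overlap. These intervals cover counting error only, and with 1 library per group a difference in dividing Krt13 cells was not tested.

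Against Krt12 cells of the NaIO3 library, Krt13 cells had higher levels of many basal genes and lower levels of many corneal and surface genes, and division genes were higher through a minority of the cells. Of 10800 genes compared (at least 20 UMIs summed), 2299 (21.3%) were at least 2-fold higher and 879 (8.14%) at least 2-fold lower, with a median log2 ratio of 0.32. With TMM scaling, which moved all ratios by -0.36, the counts were 1374 higher and 1434 lower, and list medians are read against that shift. With free RNA subtracted the counts were 2616 and 959. Of the cell division list, 17 of 17 compared genes were higher and 0 lower, with a median log2 ratio of 4.12. Without the 64 cells of sub-cluster 2, 8 of 11 compared were higher (median 1.46), beside 17.2% of all genes. Of the basal and limbal list, 12 of 19 were higher and 0 lower (median 1.65), and without sub-cluster 2 likewise 12 of 19 (1.23). Among them Itgb4, the integrin of hemidesmosomes, had 46.8 CPM, against 0.542 CPM (3 UMIs) in Krt12 cells, a ratio of 74.3 (28.8 to 425). Gpha2 had 347 CPM, against 15.5 CPM in Krt12 cells. Of the ocular surface transcription factors, 11 of 28 were higher and 4 lower (median 0.65). Barx2, a homeobox factor of ocular and glandular epithelia, had 323 CPM, against 7.23 CPM in Krt12 cells, and Klf4, a factor of differentiated surface epithelium, had 263 CPM, against 1238 CPM.

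The surface lists lay on the other side, beside the 21.3% of all genes higher and 8.14% lower. Of the cornified envelope list, 2 of 17 compared genes were higher and 10 lower (median log2 ratio -1.21). Of the corneal list, 0 of 14 were higher and 7 lower (median -1.04). The rule sorted these cells by Krt12 against Krt15 plus Krt4, and its genes were not taken out of any list, the corneal and basal ones included. Desmosome genes had 2 of 12 higher and 6 lower, and tight and adherens junction genes 1 of 21 higher and 10 lower. Desmoplakin (Dsp), which anchors keratin to desmosomes, had 412 CPM, against 1089 CPM in Krt12 cells. The 1 junction gene on the other side was the claudin Cldn8, with 11.2 CPM, against 0 in Krt12 cells, at least 20.6-fold higher. Of the wound keratinocyte list, 1 of 17 was higher and 10 lower (median -1.40). Its keratin Krt16 had 194 CPM, against 3244 CPM in Krt12 cells, and Krt6a had 3167 CPM, against 12171 CPM. Of the lipoxygenase and prostanoid list, 4 of 13 were higher (Alox8, Alox12, Alox12e and Alox15) and 2 lower (median 0.20). Of the NRF2 and aldehyde defence list, 9 of 29 were higher and 3 lower (median 0.25). Both medians lay under that of all genes and are negative with TMM scaling.

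By the rule for named genes, the 12 highest against Krt12 cells were Wfdc18, Krt17, Alox12e, Sptssb, Alox15, Tpx2, Krt7, Cyp2f2, Lgals7, Hist1h2ap, Agr2 and Barx2. Wfdc18, a small secreted protein of the whey acidic family, had 1222 CPM, against 11.6 CPM in Krt12 cells, a ratio of 105 (82.4 to 137). Krt17, a keratin of basal and appendage cells, had 1648 CPM, against 20.8 CPM, a ratio of 78.9 (65.8 to 96.2), and in PBS 956 CPM, against 0, at least 215-fold higher. Lgals7, galectin-7 of stratified epithelia, had 1649 CPM, against 42.1 CPM, a ratio of 39.1 (34.3 to 44.9), with 19.6 in PBS. In PBS, 9 of these genes had enough counts, and 9 of 9 were at least 2-fold higher there, beside 14.7% of all 3964 genes compared. Without sub-cluster 2, 11 of 11 compared remained at least 2-fold higher, beside 17.2% of all genes, but the genes were chosen in these same cells. Hist1h2ap belongs to a family of near-identical histone genes that the counting may have split. Most of the 12 did not set Krt13 cells apart from Krt13-low cells. Against NaIO3 Krt13-low cells, 5 of the 12 were at least 2-fold higher in Krt13 cells and 1 at least 2-fold lower. Lgals7 had a median per cell of 11.9 CP10K in NaIO3 Krt13 cells, against 42.5 CP10K in Krt13-low cells.

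The 12 lowest were Lypd2, Slurp1, Mgarp, Crct1, Sprr1b, Ly6g6c, Lce3c, Cnfn, Fam83a, Xlr4a, Homer2 and Xlr4c, with genes of the cornified layer and the Ly6 family among them; Xlr4a and Xlr4c have near copies that the counting may have split. Slurp1, a secreted Ly6 protein of the cornea, had 466 CPM in NaIO3 Krt13 cells, against 12192 CPM in Krt12 cells, a ratio of 0.0382. Cnfn, cornifelin of the cornified envelope, had 67.2 CPM, against 1625 CPM, a ratio of 0.0414. RPE barcodes had 298 CPM of Slurp1 and 48.5 CPM of Cnfn, so the levels in Krt13 cells were not far above the free RNA. In PBS, 10 of 10 compared were at least 2-fold lower, beside 8.38% of all genes, but with ratios of 0.358 for Slurp1 and 0.426 for Lypd2, in cells that included sub-cluster 4. Without sub-cluster 2, 12 of 12 were at least 2-fold lower in NaIO3, beside 7.75% of all genes, but the genes were chosen in these same cells.

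Against Krt13-low cells of the NaIO3 library the order of the lists turned round. Of 8650 genes compared, 982 (11.4%) were at least 2-fold higher in Krt13 cells and 831 (9.61%) at least 2-fold lower, with a median log2 ratio of -0.08; with TMM scaling, which moved all ratios by 0.16, they were 1233 and 572. With free RNA subtracted they were 1113 and 896. Of the cornified envelope list, 10 of 14 compared genes were higher and 0 lower (median 1.18). Desmosome genes were higher in 8 of 11 and lower in 0 (median 1.26; 7 higher and 1.23 with genes at 0 at their bounds), junction genes in 10 of 20 and 0 (median 0.94), and membrane mucins in 7 of 8 and 0 (median 1.63). Grhl3, a grainyhead factor of barrier formation, had 48.5 CPM, against 7.18 CPM (2 UMIs) in Krt13-low cells, a ratio of 5.43 (1.83 to 56.4). Elf3, an epithelial ETS factor, had 644 CPM, against 244 CPM. Of the basal and limbal list, 1 of 19 was higher and 9 lower (median -0.90), and of the cell division list 0 of 17 were higher and 7 lower (median -0.93). By these lists Krt13 cells lay between Krt13-low and Krt12 cells in the NaIO3 library.

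**Figure D4:**
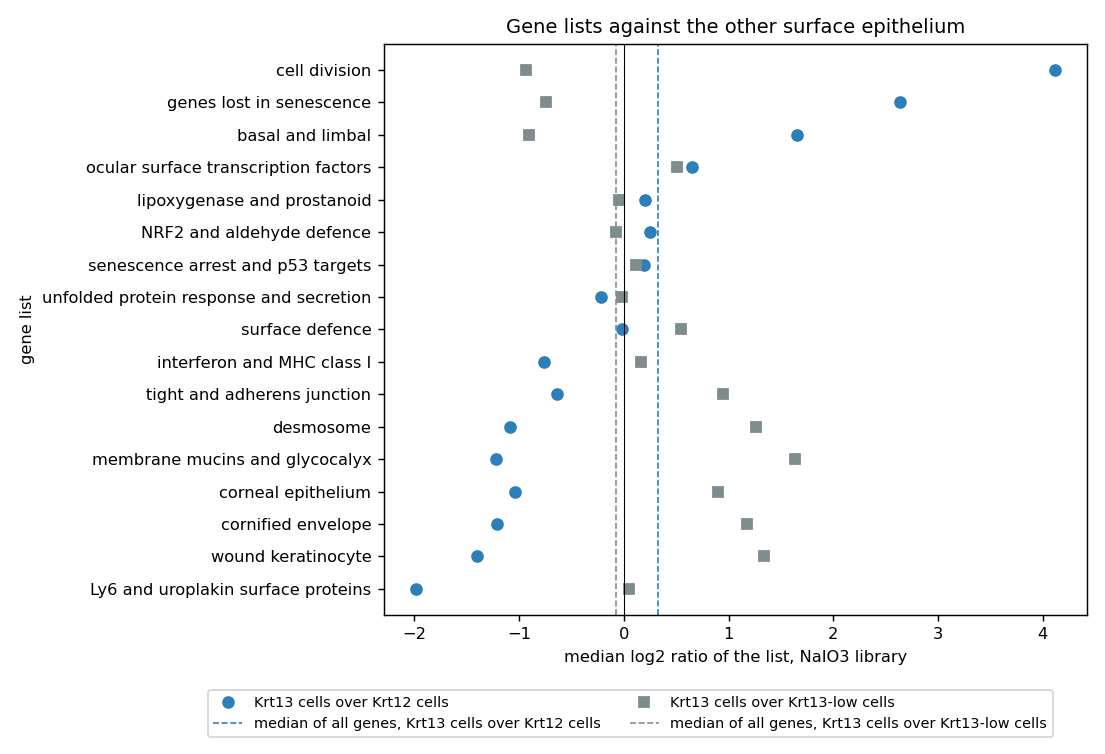
Median log2 ratios of 17 gene lists in the NaIO3 library, for Krt13 cells over Krt12 cells (circles) and over Krt13-low cells (squares); dashed lines are the medians of all genes compared, 0.32 and -0.08. Cell division and basal lists lay right of the lines against Krt12 cells and left of them against Krt13-low cells, and the desmosome, cornified envelope and mucin lists did the reverse.

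Of the 12 genes named as highest against Krt13-low cells, Krt19, Alox15 and Alox12e were already described, and the others were Areg, Ceacam1, Upp1, Rbp2, Prss27, Gsto1, Akr1b7, Pdzk1ip1 and Calml3. Areg, amphiregulin, a growth factor of the EGF receptor, had 129 CPM, against 0, at least 11.9-fold higher. Rbp2 had 1217 CPM, against 140 CPM, a ratio of 8.58 (6.34 to 12.2), and Gsto1 24667 CPM, against 4636 CPM, a ratio of 5.32 (5.04 to 5.63). Both were no higher than in Krt12 cells, which had 1714 CPM of Rbp2 and 31662 CPM of Gsto1. In PBS 11 of 11 compared were at least 2-fold higher, beside 24.4% of all 1769 genes. The 12 lowest were Tgm2, Wnt10a, Ptprz1, Dll1, Wnt6, Cdh13, Gpha2, Efemp1, Gins2, Tmem80, Ptn and Igfbp2, with the Wnt ligands Wnt10a and Wnt6 and the Notch ligand Dll1 among them. Wnt10a had 31.5 CPM, against 230 CPM in Krt13-low cells, a ratio of 0.137 (0.0970 to 0.194). Gpha2 had 347 CPM, against 1533 CPM, a ratio of 0.226 (0.201 to 0.255), and in PBS 151 CPM, against 1824 CPM. In PBS, 5 of 5 compared were at least 2-fold lower, beside 17.5% of all genes.

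Between the libraries, levels from summed counts were higher in NaIO3 Krt13 cells for division genes, Wfdc18, Sprr1a and Ifi27l2a, but the PBS side rests on 14 cells. The division UMIs came mainly from the 64 cells of sub-cluster 2, and a difference in the share of dividing cells was not tested. Of 8491 genes compared, 1576 (18.6%) were at least 2-fold higher and 745 (8.77%) at least 2-fold lower in NaIO3, with a median log2 ratio of 0.13. With a pseudocount of 2 in place of 0.5, 418 were higher and 1306 lower, since many genes had few PBS counts, and with free RNA subtracted 1618 and 786. The markers themselves were higher or level: Krt13 had 6354 CPM in NaIO3 and 3877 CPM in PBS, a ratio of 1.64 (1.53 to 1.76), Krt4 a ratio of 2.31 (2.11 to 2.52) and Alox12e of 0.998 (0.844 to 1.20). Without sub-cluster 4, in 222 NaIO3 and 8 PBS cells, these ratios were 2.20, 1.54 and 0.614. Krt15 differed little, with 20491 CPM in NaIO3 and 18342 CPM in PBS, a ratio of 1.12 (1.08 to 1.16).

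Of the 12 named highest genes, 9 belong to division or chromosome packaging: Hist1h2ap, Top2a, Cks2, Birc5, Ube2c, Cdk1, Stmn1, Cdca3 and Cdca8. Top2a had 149 CPM in NaIO3 cells and 0 in PBS cells, at least 10.2-fold higher. Stmn1, stathmin, a regulator of microtubules, had 350 CPM in NaIO3 and 39.0 CPM in PBS, a ratio of 8.45 (4.54 to 20.9). Hist1h2ap had 570 CPM in NaIO3 and 4.88 CPM (1 UMI) in PBS, a ratio of 78.0 (20.96 to 4623). These ratios count UMIs, and the UMIs of division genes came mainly from the 64 cells of sub-cluster 2, which had 428 CPM of Top2a, against 0 to 64.1 CPM in the other sub-clusters. Of the cell division list, 14 of 17 compared were higher and 0 lower with the pseudocount of 0.5 (median log2 ratio 3.89). Since 9 of the 17 had 0 PBS UMIs and were compared through their NaIO3 counts alone, this median depends on the pseudocount. With those genes at their lower bounds (3 counts for the PBS cells), 13 were at least 2-fold higher and the median was 1.68. Without sub-cluster 4, 10 of the 17 had 0 PBS UMIs, and at the bounds 7 were higher and 1 lower (median 0.74).

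The 3 other named genes were Wfdc18, Sprr1a and Ifi27l2a. Wfdc18 had 1222 CPM in NaIO3 and 161 CPM in PBS Krt13 cells, a ratio of 7.48 (5.39 to 11.05), with 13.5 and 0.852 CPM in RPE barcodes. Sprr1a, a small proline-rich precursor of the cornified envelope, had 250 CPM in NaIO3 and 14.6 CPM in PBS, a ratio of 14.6 (5.81 to 82.9), with 40.1 and 0.0655 CPM in RPE barcodes. Ifi27l2a, an interferon-induced gene, had 396 CPM in NaIO3 and 29.3 CPM in PBS, a ratio of 12.5 (6.20 to 37.0), with 37.3 and 9.56 CPM in RPE barcodes. In Krt12 cells the same ratio between libraries was 79.5 for Sprr1a and 20.6 for Ifi27l2a, and of 10 of the 12 genes compared there 9 were at least 2-fold higher (6 at the bounds), beside 15.8% of all genes. After thinning, Wfdc18 had a UMI in 1.86% of NaIO3 Krt12 cells, against 3.83% of RPE barcodes. Cdk1 had 2.10%, against 7.05%, and Birc5 was likewise lower than in RPE barcodes. Top2a, not among the 9, ran the other way, with 1.86%, against 0.573%. How far free RNA set the ratios in Krt12 cells was not tested, so they are no repeat in another cell type. Of the 12 genes, 5 had 0 UMIs in PBS cells. The 12 were at least 2-fold higher in 12 of 12 cases without sub-cluster 4, also with those genes at their bounds, beside 18.1% of all genes. Without sub-cluster 2 they were so in 11 of 12, beside 14.9%, where Ube2c had a ratio of 1.93, but in 6 of 12 with those genes at their bounds. The genes were chosen as the most extreme in these same cells, and sub-cluster 4 held 10 of the 232 NaIO3 cells. Their staying past 2-fold is therefore no independent check.

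The 12 named lowest genes were Psca, Lypd2, Tspan1, Ifit1bl1, Ccl4, Prss32, Adgrf1, Asprv1, Plekhs1, Krt78, Cysrt1 and Slurp1, and most of them rested on sub-cluster 4. Psca, prostate stem cell antigen of the Ly6 family, had 417 CPM in NaIO3 and 11461 CPM in PBS, a ratio of 0.0364. Without sub-cluster 4 it had 170 CPM in NaIO3 and 17.9 CPM in PBS, a ratio of 7.58 (2.60 to 78.4), with 200 and 65.8 CPM in RPE barcodes. Asprv1, a protease of the cornified layer, had 1016 CPM in NaIO3 and 9759 CPM in PBS, and 666 and 610 CPM without sub-cluster 4. So the direction of Psca turned and that of Asprv1 was lost when the 6 PBS cells of that sub-cluster were left out. Of the 7 genes still compared without sub-cluster 4, 1 was at least 2-fold lower, beside 13.5% of all genes, and 2 were at least 2-fold higher (Psca and Slurp1). The one lower was Ifit1bl1, an interferon-induced gene, with 38.9 CPM in NaIO3 and 80.8 CPM in PBS, a ratio of 0.459 (0.243 to 1.09). Without sub-cluster 2, 12 of 12 were at least 2-fold lower, beside 7.85% of all genes, but the genes were chosen in these same cells. In Krt12 cells 6 of 12 were at least 2-fold lower, beside 4.81%. Krt12 likewise had 982 CPM in NaIO3 and 3707 CPM in PBS, but 552 and 0 CPM without sub-cluster 4.

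**Figure D5:**
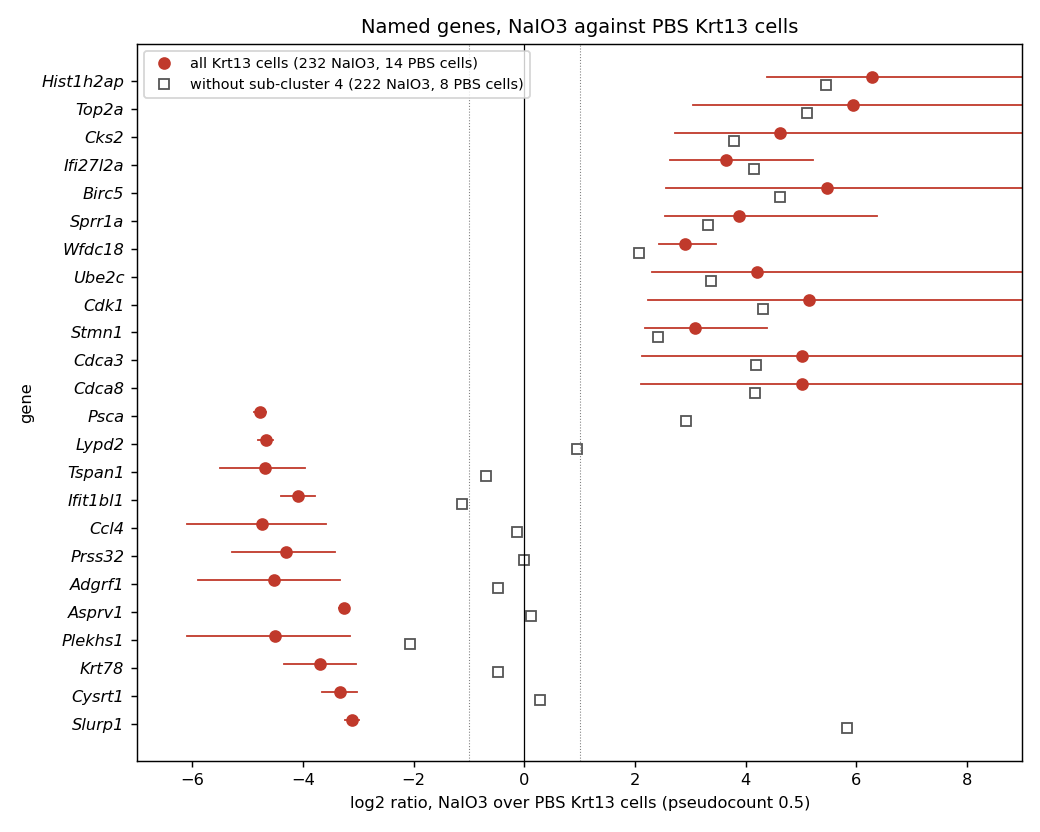
Log2 ratios of NaIO3 over PBS Krt13 cells for the 24 named genes, with 95% intervals of the ratio over all cells (lines, running to the right edge where no upper bound exists) and values without sub-cluster 4 (hollow squares); dotted lines mark 2-fold, and points of the 5 genes with 0 PBS UMIs depend on the pseudocount. The 12 higher genes stayed past 2-fold on the right without sub-cluster 4, where Psca and Slurp1 also lay.

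The remaining lists were read with and without sub-cluster 4, beside 18.6% of all genes higher and 8.77% lower, and 18.1% and 13.5% without that sub-cluster. Of the basal and limbal list, 12 of 19 compared genes were higher in NaIO3 and 0 lower (median log2 ratio 1.10), and 7 of 18 were higher without sub-cluster 4 (0.52). With genes at 0 in PBS at their bounds, 10 and 6 were higher. Krt14 had 4831 CPM in NaIO3 and 1063 CPM in PBS, a ratio of 4.53 (3.97 to 5.22), and 2.61 without sub-cluster 4. Of the interferon and MHC class I list, 7 of 22 were higher and 3 lower (median 0.38), and 13 were higher and 0 lower without sub-cluster 4 (1.43). There 7 of the 22 had 0 PBS UMIs, and at their bounds 7 were higher (median 0.67). B2m, the light chain of MHC class I, had 1026 CPM in NaIO3 and 297 CPM in PBS Krt13 cells, a ratio of 3.42 (2.67 to 4.52), with 750 and 560 CPM in RPE barcodes. H2-K1, a class I heavy chain, had 453 CPM in NaIO3 and 171 CPM in PBS, a ratio of 2.62 (1.90 to 3.83), with 103 and 33.8 CPM in RPE barcodes. Both ratios were close to these without sub-cluster 4, at 3.52 and 2.59.

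Of the NRF2 and aldehyde defence list, the genes of the antioxidant response, 10 of 28 were higher and 2 lower (median 0.51), and 7 higher with the 3 genes at 0 in PBS at their bounds (0.22), beside 18.6% and 8.77% of all genes. Nqo1, a quinone reductase, had 137 CPM in NaIO3 and 24.4 CPM (5 UMIs) in PBS, a ratio of 5.11 (2.38 to 17.4), with 211 and 160 CPM in RPE barcodes. Mt1, a metallothionein, had 2408 CPM in NaIO3 and 1156 CPM in PBS, a ratio of 2.08 (1.83 to 2.38), but 18049 and 13090 CPM in RPE barcodes. Of the senescence arrest and p53 target list, 5 of 20 were higher and 0 lower (median 0.51), and 2 higher at the bounds (0.42), beside 18.6% of all genes. Cdkn1a, the p21 cell cycle inhibitor, had 274 CPM in NaIO3 and 361 CPM in PBS, a ratio of 0.754 (0.595 to 0.978), whereas in Krt12 cells its ratio was 2.46 (2.17 to 2.80); this difference was not tested. The Ly6 and uroplakin list had 0 of 11 higher and 7 lower (median -2.18), and 3 higher and 0 lower without sub-cluster 4 (0.21). Of the membrane mucins, 0 of 8 were higher and 4 lower (median -1.12; -0.30 without sub-cluster 4). The 4 MHC class II genes compared were all lower in NaIO3, and in PBS their UMIs came almost wholly from 2 cells with 240 and 77 UMIs, against at most 3 in each of the other 12. Summed macrophage markers were at 1547 CPM in NaIO3 and 966 CPM in PBS Krt13 cells, with 71.8 CPM in PBS cells outside sub-cluster 4, and their part in the class I, class II and interferon counts was not tested.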

How the data were processed

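Droplet single-cell libraries (10x Genomics), 1 per group, were analysed. The authors deposited unnormalised UMI counts, made with Cell Ranger 3.0.2 on mm10 per the submitters' processing notes. For the annotation release, strand setting and multi-gene reads, details were not given in the sources used here. Gene coordinates are from GENCODE M21 (GRCm38).

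A barcode was kept from 500 genes and up to a mitochondrial share of 25%. Doublets were scored with Scrublet in scanpy 1.11.5 and not removed in the reported values. Counts were summed over the cells of a population and library and given as CPM with exact Poisson intervals; ratios of genes with at least 20 UMIs summed carry exact conditional binomial intervals, log2 ratios a pseudocount of 0.5, and shares Clopper-Pearson intervals, or, where a share is 0, the limit of 3 cells of the total. Fold bounds against 0 use 3 counts for the group at 0, and lists with several genes at 0 are also given with those at their bounds, a choice made after seeing the data. For the named genes, the first 12 in each direction by the interval bound nearest to 1 were taken. Left out were, beside others, mitochondrial and ribosomal protein genes and genes whose level free RNA could set. The genes of the rule were left out against Krt12 and Krt13-low cells, but not between the libraries. Krt13 cells were clustered with Leiden at resolution 0.6, all cells at 1. TMM factors are from edgeR 4.0.16. The ratio intervals and the 2-fold call were checked on simulated summed counts without variation between cells. The rule, clustering, thinning and free RNA steps were not simulated. The members, gene lists (527 of 529 genes matched) and rules were chosen with earlier results of these data known.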

Additional observations from a re-analysis of the deposited data

How the results depend on the processing

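No paired analysis was possible because each group is 1 pooled library and the result comes from no test; for the same reason no replicate could be left out. Between the libraries, 1576 genes were higher and 745 lower: leaving out cells with macrophage or pigment RNA gave 410 and 305, a minimum of 100 UMIs 428 and 185, a pseudocount of 2 gave 418 and 1306, no minimum 4053 lower, and leaving out sub-cluster 4 gave 1123 lower. Against Krt12 cells, 2299 were higher and 879 lower: TMM scaling gave 1374 and 1434, no minimum 4560 and 1778, and the macrophage and pigment filter 767 and the minimum of 100 UMIs 958 higher. Against Krt13-low cells, 982 were higher and 831 lower: the filter gave 325 and 177, the minimum of 100 UMIs 386 and 122, a pseudocount of 2 gave 398 and 1275, and no minimum 3893 lower. The NaIO3 share of 5.88% was 4.56% with a limit of 20 CP10K for Krt13 plus Serpinb3a, 3.37% with an RPE gene limit of 20 CP10K, 0.583% with the macrophage and pigment filter, 9.68% with a mitochondrial limit of 10%, and 4.26% without sub-cluster 2. The filter left out cells above 5 CP10K of macrophage or 20 CP10K of pigment genes, but the share stayed one of all kept barcodes. The PBS share was 0.274% with the filter, against 0.319%. RPE barcodes themselves held 1833 CPM of the 10 macrophage markers in NaIO3 and 237 CPM in PBS. How many cells the filter left out through free RNA was not tested. Between the libraries, the sign of the log2 ratio was the opposite without sub-cluster 4 for Asprv1 (log2 ratio 0.12), Cysrt1 (0.28), Lypd2 (0.96), Prss32 (0.0018), Psca (2.92), Slurp1 (5.83) and the Ly6 and uroplakin list median (0.21); Asprv1, Cysrt1 and Prss32 were then near 0, and Prss32 had under 20 UMIs. With the macrophage and pigment filter it was so for Ccl4 between the libraries (0.84) and for Ptprz1 (0.35) and Tmem80 (1.09) against Krt13-low cells. The causes were not tested. Leaving out sub-clusters 2 and 4 was chosen after seeing the data. Of the other values, 88 counts and shares, 345 list medians and 868 values of named genes moved by less than their limit, and 27 list medians and 131 values of named genes moved by more without turning a direction past 2-fold. The number of PBS cells limits the comparison between libraries: 3 counts over those 14 cells are 14.6 CPM.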
